A study of Mus musculus with 53 samples.

Results

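The messenger RNA of 10 Notch pathway genes was followed in single T1 pre-HSCs, type 1 precursors of haematopoietic stem cells (HSCs), from mouse embryos. The genes were picked by symbol: the receptors Notch1, Notch2 and Notch4, the ligands Dll4 and Jag1, the fringe enzyme Mfng, the DNA-binding partner Rbpj, and the targets Hes1, Hey1 and Hey2. All 10 were among the 14833 genes of the deposited table. The KO cells, numbered 1 to 12, had the genotype written as mH19 delta_DMR/+, a deletion of the differentially methylated region (DMR) of H19 beside an allele written as +. The cells named wildtype, numbered 13 to 22, had the genotype written as mH19 flDMR/+. In that notation "fl" usually marks a floxed allele, so the controls are not free of an engineered allele. Both groups were T1 pre-HSCs that had been sorted at E11 from the embryonic AGM (aorta-gonad-mesonephros), and each library was made from 1 cell by template switching. The labels name no Cre driver, embryo, litter or sort, so each genotype counted as 1 sample. No test between genotypes was possible, SDs and ranges are over cells, and intervals on shares of cells are exact (Clopper-Pearson) 95% intervals that cover counting error only.

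Notch is read by contact between cells. A Delta or Jagged ligand on one cell pulls on the receptor of its neighbour, proteases cut the receptor, and the freed intracellular domain joins RBPJ on DNA and switches on repressor genes of the Hes and Hey families. Fringe enzymes add sugars to the receptor and change its response to Delta and Jagged ligands. In the embryonic aorta the pathway is known for arterial identity and for the emergence of blood stem cells from endothelium, for which mouse embryos need Notch1. Receptor RNA says whether the gene is transcribed and not whether the receptor has been cut.

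Expression is given in RPKM, reads divided by transcript length and by the cell's mapped reads, and a gene is called on in a cell at 1 RPKM or more. Sequencing depth is unknown. KO cells had 1517 to 8408 genes on (median 3171.5), and wildtype cells 2067 to 5716 (median 4176). H19, next to the targeted region, was at 0 to 186 RPKM in KO cells, against 231 to 1261 RPKM in wildtype cells, with no overlap. The values of wildtype cell 19 were shifted against the gene names, and this cell was left out. A shift was found in 24 of 29 blocks of 500 rows, which cover 6 of the 10 Notch genes. None of the other 21 cells was shifted in any block, and 12 KO and 9 wildtype cells remained. The label T1 pre-HSC was checked against marker genes. Procr, which encodes the endothelial protein C receptor, was on in 9 of 12 KO cells and 8 of 9 wildtype cells. Cdh5, the VE-cadherin of endothelial junctions, was on in 7 of 12 KO cells and 7 of 9 wildtype cells. Kit was on in 7 of 12 KO cells and 5 of 9 wildtype cells. Ptprc, which encodes the blood cell antigen CD45, was on in 1 KO cell and 1 wildtype cell. The other listed genes of the pre-HSC gate and of blood varied. Cd44 was on in 7 KO and 4 wildtype cells, Itga2b in 3 and 3, Spn in 3 and 0 and Cd34 in 3 and 1. Runx1 was on in 4 KO and 6 wildtype cells, Myb in 3 and 4 and Gfi1 in 0 and 7. These last 3 genes stand among the first 24 rows, where the check of row order was not made. Fewer than 4 of 9 endothelial marker genes were on in KO cells 1, 3, 9, 10, 11 and 12 and in wildtype cells 13 and 14, so the label was not borne out by these markers in every cell.

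Every cell had at least 1 of the 10 genes on, and no cell had all 10. KO cells had between 1 and 9 on with a median of 2.5, and wildtype cells between 1 and 7 with a median of 3. The Notch genes thus formed a wide span within each genotype and the genotypes overlapped across it. Hes1 and Mfng stood highest, with means of 4.19 ± 2.64 and 4.01 ± 3.52 on the log2(RPKM + 1) scale (SD over 21 cells), and the next gene, Jag1, lay 2.09 below Mfng. The order below Jag1 was Hey1 at 1.61, Rbpj at 1.17, Dll4 at 1.07, Notch1 at 1.04, Hey2 at 0.95, Notch2 at 0.82 and Notch4 at 0.42. Each step in this order, also that between Mfng and Jag1, was smaller than the SD over cells of the higher gene of the pair.

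**Figure D1:**
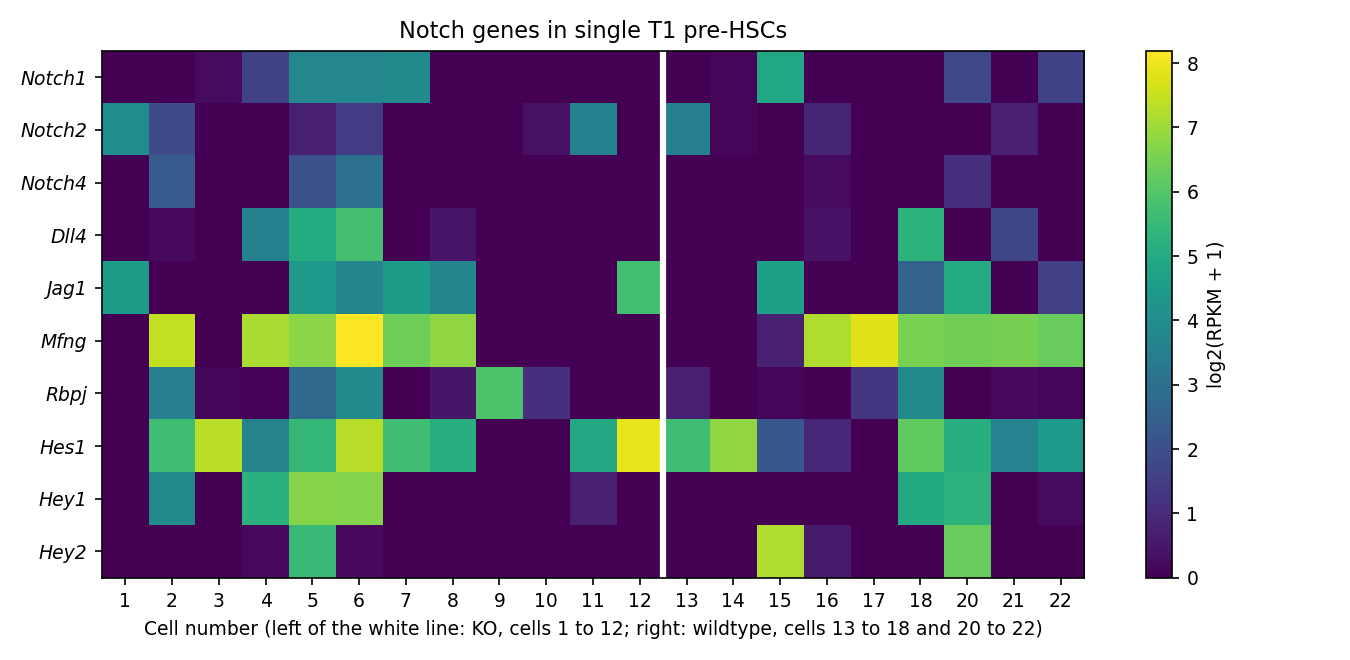
Level of each Notch gene (rows) in each cell (columns) as log2(RPKM + 1), with KO cells left of the white line and wildtype cells right of it. Mfng is either near 0 or high, Hes1 is on in 16 of 21 cells, and KO cells 5 and 6 each have 9 of the 10 genes on.

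At least 1 receptor was on in 7 of 12 KO cells and 4 of 9 wildtype cells, 58.3% (27.7 to 84.8%) and 44.4% (13.7 to 78.8%). Notch1 (ENSMUSG00000026923.11, chr2:26457902-26503822 in GRCm38.p6, the assembly of mm10) was on in more cells than the other receptors. It was at 2.07, 12.9, 12.9 and 13.7 RPKM in KO cells 4, 5, 6 and 7, against 28.9, 2.45 and 2.00 RPKM in wildtype cells 15, 20 and 22, and at 0.178 RPKM or less in every other cell. The median was 0 in both genotypes, and the highest single level was that of wildtype cell 15. Notch2 (ENSMUSG00000027878.10, chr3:98013538-98150367) was on in KO cells 1, 2, 6 and 11, at 14.8, 2.68, 1.65 and 11.2 RPKM, against wildtype cell 13 at 10.7 RPKM. Over the 21 cells Notch1 was on in 7 and Notch2 in 5, and KO cell 6 was the single cell that had both on. Counts this small cannot show whether these receptors keep to different cells. Notch4 (ENSMUSG00000015468.10, chr17:34564286-34588543), a receptor known mainly from endothelium, reached 4.04, 3.11 and 7.32 RPKM in KO cells 2, 5 and 6, against 1.13 RPKM in wildtype cell 20. All 4 cells with Notch4 on had another receptor on as well, and all 4 had Mfng, Hes1 and Hey1 on. KO cell 6 was the one cell with 3 receptors on.

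A ligand was on in 7 of 12 KO cells and 5 of 9 wildtype cells. Jag1 (ENSMUSG00000027276.7, chr2:137081451-137116520) was the more widespread ligand, on in 6 KO and 4 wildtype cells. Its levels were 22.1, 20.6, 12.2, 21.8, 12.6 and 51.8 RPKM in KO cells 1, 5, 6, 7, 8 and 12, against 23.5, 5.10, 31.8 and 1.91 RPKM in wildtype cells 15, 18, 20 and 22. Jag1 was listed at 0 in all 11 other cells, so its values were either above 1 RPKM or 0, with none in between. Dll4 (ENSMUSG00000027314.6, chr2:119325784-119335666), the Delta ligand of arterial endothelium, was on in KO cells 4, 5 and 6 at 11.2, 32.0 and 52.0 RPKM, against wildtype cells 18 and 21 at 38.1 and 2.24 RPKM. The long non-coding gene Gm14207 overlaps Dll4 and is listed in the same table, and how reads were shared between them is not known. All 5 cells with Dll4 on had Hes1 and Mfng on, and 4 of the 5 had Hey1 on. Both ligands were on in KO cells 5 and 6 and wildtype cell 18. Of the 12 cells with a ligand on, 8 also had a receptor on, and 6 of the 21 cells had neither.

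Mfng (ENSMUSG00000018169.8, chr15:78755882-78773516), the fringe that extends O-fucose on Notch receptors, was the most clear-cut of the 10 genes. It was at 82.2 to 291 RPKM in 6 KO cells (2, 4, 5, 6, 7 and 8), against 76.5 to 228 RPKM in 6 wildtype cells (16, 17, 18, 20, 21 and 22), and at 0.703 RPKM or less in the remaining 9 cells. No cell lay between these levels, and where Mfng was on the genotypes overlapped in range. Among cells with Mfng on, the mean log2(RPKM + 1) was 7.13 in KO and 6.80 in wildtype cells. The share of cells with Mfng on was 50% (21.1 to 78.9%) in KO and 66.7% (29.9 to 92.5%) in wildtype cells. The median over all cells was 41.1 RPKM over KO cells and 84.0 RPKM over wildtype cells, with 6 of 12 KO cells and 3 of 9 wildtype cells near 0.

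Rbpj (ENSMUSG00000039191.8, chr5:53555779-53657445), through which all Notch receptors act on DNA, was on in fewer cells than its target Hes1. It was at 11.0, 5.93, 14.1, 58.5 and 1.15 RPKM in KO cells 2, 5, 6, 9 and 10, against 1.47 and 14.2 RPKM in wildtype cells 17 and 18. Low values above 0 were common: Rbpj was listed at exactly 0 in 2 KO cells and in 0 wildtype cells. KO cell 9 had the highest level and no other Notch gene on. Mouse Rbpj has 3 annotated pseudogenes, so reads may have been shared with near copies and its values are uncertain.

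Hes1 (ENSMUSG00000022528.7, chr16:30065357-30067796), a repressor that is a direct Notch target and also answers to other signals, was on in more cells than any other of the 10 genes. It was on in 9 of 12 KO cells, 75% (42.8 to 94.5%), and in 7 of 9 wildtype cells, 77.8% (40.0 to 97.2%). Hes1 spanned 0 to 236 RPKM in KO cells with a median of 38.6, and 0 to 112 RPKM in wildtype cells with a median of 20.4. The highest 3 levels, 236, 159.9 and 157 RPKM, were in KO cells 12, 3 and 6, followed by wildtype cell 14 at 112 RPKM. KO cells 12 and 3 and wildtype cell 14 had no receptor on. Hey1 (ENSMUSG00000040289.4, chr3:8663359-8667038), a target tied to arterial endothelium, was at 14.1, 36.5, 104 and 100.4 RPKM in KO cells 2, 4, 5 and 6, against 30.4 and 38.4 RPKM in wildtype cells 18 and 20. The 2 highest Hey1 levels were thus in KO cells 5 and 6, the cells with the most Notch genes on. Hey2 (ENSMUSG00000019789.8, chr10:30832359-30842783), its close relative, was on in 3 cells, KO cell 5 at 44.8 RPKM against wildtype cells 15 and 20 at 147 and 76.4 RPKM. All 3 of these cells had Notch1, Jag1 and Hes1 on, and 2 of them had Hey1 on. With 3 cells, no share of Hey2 by genotype can be told from another: it was 8.33% (0.211 to 38.5%) in KO and 22.2% (2.81 to 60%) in wildtype cells.

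The Hey2 promoter is shown because it is the promoter of a target in this set that the reference table holds, and because it carries the core letters bound by RBPJ. The sequence is from RefSeq (GRCm38.p6, chr10:30842734-30843033, minus strand, 250 bases before to 50 after the start, written 5′ to 3′), and capitals mark TGGGAA or its reverse complement TTCCCA.
Hey2: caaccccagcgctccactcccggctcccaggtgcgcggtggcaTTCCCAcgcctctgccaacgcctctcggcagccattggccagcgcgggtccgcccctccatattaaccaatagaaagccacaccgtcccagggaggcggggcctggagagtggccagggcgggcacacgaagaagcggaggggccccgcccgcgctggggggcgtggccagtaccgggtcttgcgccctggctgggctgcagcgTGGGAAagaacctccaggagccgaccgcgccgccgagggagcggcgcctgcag
The matches begin at -207 (reverse strand) and -3 (forward strand) from the start. Promoters were held for 7 of the 10 genes, 8 promoters in all, and Hes1, Hey1 and Mfng had none. TGGGAA was searched on both strands and was found in 3 of the 8, those of Hey2 and both starts of Rbpj, whose windows overlap and share 1 of the matches, against 25.6% of 32851 mouse promoters of the same length. The longer form GTGGGAA, which contains the shorter motif, was in 6.38% of all promoters and, among these genes, in that of Hey2. A match describes letters in this window and no binding was measured.

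Genes on in the same cell were set against the order of the pathway. Of 11 cells with a receptor on, 10 also had a target on, 6 of 7 KO cells and 4 of 4 wildtype cells. The exception was KO cell 1, with Notch2 and Jag1 on and no target. A target was on in 16 of all 21 cells, and each of these had Hes1 on, so the count is that of Hes1. Of the 10 cells with no receptor on, 6 had Hes1 on, KO cells 3, 8 and 12 and wildtype cells 14, 18 and 21. Cells with a receptor on had a median of 4471 genes on, against 3466.5 in the others, and the part of detection was not tested. Hey1 or Hey2 was on in 7 cells, and 6 of these had a receptor on, the exception being wildtype cell 18. A receptor, Rbpj and a target were on together in 3 of 12 KO cells (2, 5 and 6), against 0 of 9 wildtype cells. The exact intervals of those shares, 5.49 to 57.2% and 0 to 33.6%, overlap. A target was on without Rbpj in 6 of 12 KO and 6 of 9 wildtype cells. All 6 cells with Hey1 on also had Mfng and Hes1 on, and 6 of the 7 cells with Notch1 on had Jag1 on.

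**Figure D2:**
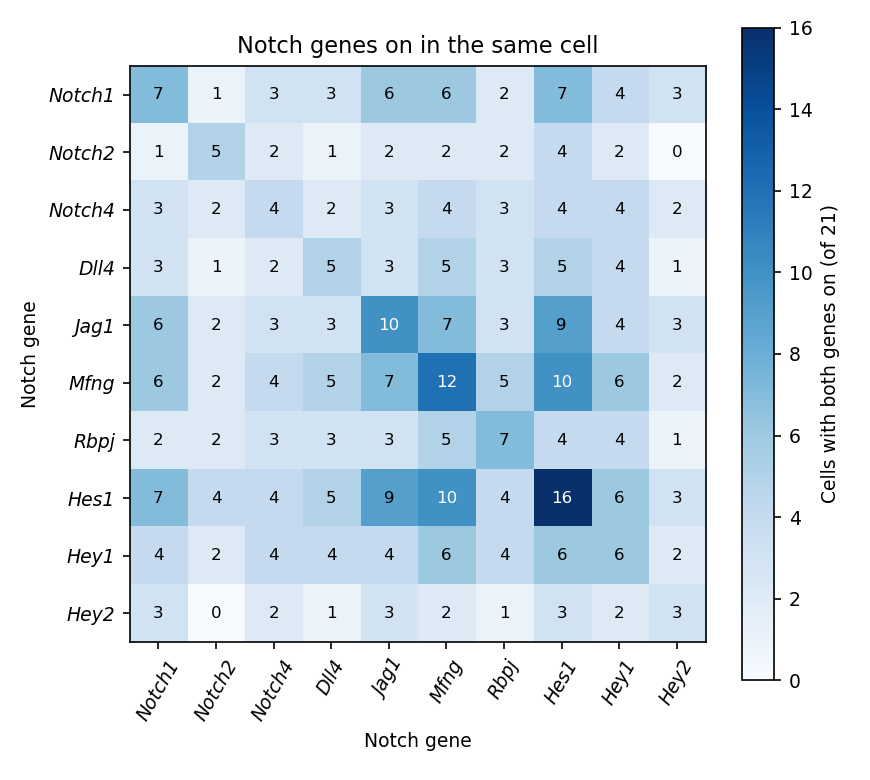
Number of the 21 cells, both genotypes together, in which both genes of a pair are on (1 RPKM or more), with the number of cells for each single gene on the diagonal. Hes1 is on in 16 cells and Mfng in 12, both together in 10, and Notch2 and Hey2 share no cell.

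By genotype, 8 of the 10 genes had a higher mean in KO than in wildtype cells and 2, Mfng and Hey2, a lower one. Of all genes compared, 41.3% had a higher mean in KO. The difference of mean log2(RPKM + 1), KO minus wildtype, was 0.18 for Notch1, 0.41 for Notch2, 0.47 for Notch4, 0.43 for Dll4, 0.69 for Jag1, 0.79 for Rbpj, 0.53 for Hes1 and 0.77 for Hey1. Mfng averaged 3.56 ± 3.75 in KO cells, against 4.62 ± 3.31 in wildtype cells (SD, 12 and 9 cells), and differed by -1.05. Hey2 averaged 0.49 ± 1.58 in KO cells, against 1.56 ± 2.95 in wildtype cells, and differed by -1.07. Each of the 10 differences was smaller than the SD over cells in at least one of the genotypes, and the ranges overlapped for every gene.

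A size of 1 or more was counted as large. Of the 10 genes, 0 were higher and 2 lower by that size, while among the 6759 genes on in at least 5 of the 21 cells 9.87% were higher and 19.9% were lower. Notch4 and Hey2 were on in too few cells to be among those 6759, which leaves 8 of the 10. Among these 8, 0 were higher and Mfng alone was lower by that size. The median of the 10 Notch genes was 0.45, while that of all compared genes was -0.18 with an upper quartile of 0.42. Relative to the median of all genes, Mfng stood at -0.87 and Hey2 at -0.89, and Rbpj at 0.97, Hey1 at 0.95 and Jag1 at 0.87. On that scale each of the 10 genes was under the size counted as large. Single cells moved the differences, given here without taking off that median. Hey2 stood at -0.36 without wildtype cell 15 and -1.53 without KO cell 5, Mfng at -0.65 without wildtype cell 17 and -1.63 without wildtype cell 13, and Notch1 at -0.07 without KO cell 7. Hey1, Jag1 and Rbpj reached 1.28, 1.13 and 1.19 without wildtype cells 20, 20 and 18, and stood at 0.34, 0.37 and 0.39 without KO cells 5, 12 and 9. Dll4 stood at 0.02 and Notch4 at 0.25 without KO cell 6, Hes1 at 0.04 without wildtype cell 17, and Notch2 at 0.14 without KO cell 1.

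**Figure D3:**
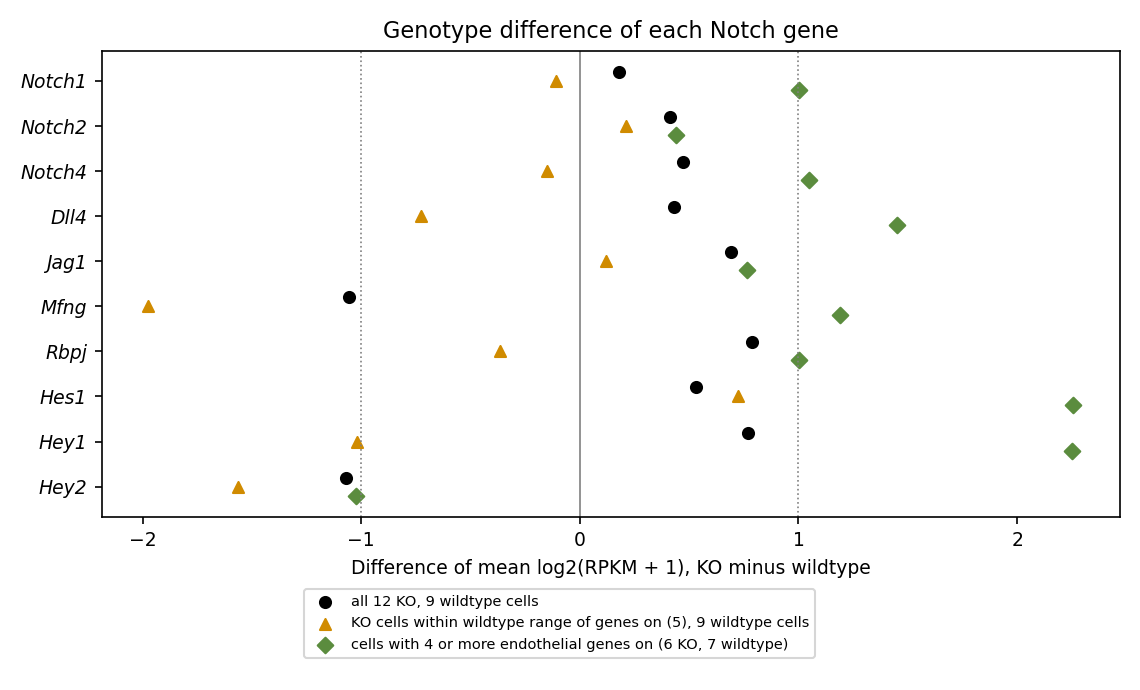
Difference of mean log2(RPKM + 1), KO minus wildtype, for each Notch gene over all 21 cells (circles), with the KO cells limited to the wildtype range of genes on (triangles), and over cells with 4 or more endothelial genes on (diamonds). Dotted lines mark the size counted as large. The circles lie between -1.07 and 0.79, and Mfng lies at -1.05, -1.98 and 1.19 in the 3 comparisons. The KO cells of the last comparison are exactly those with Mfng on.

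The choice of cells turned several of these differences. KO cells were limited to the 5 within the wildtype range of genes on (3, 7, 8, 10 and 11). These had 2260 to 3767 genes on, all below the wildtype median of 4176, so detection was not matched. With them, 3 of the 10 genes were higher in KO. Mfng then lay at -1.98, Hey2 at -1.56 and Hey1 at -1.02, while Hes1 lay at 0.72, and the median of all genes was -0.54. When cells of both genotypes were limited to those with 4 or more endothelial genes on, 6 KO and 7 wildtype cells remained and 9 of the 10 genes were higher in KO. In those cells Mfng was on in 6 of 6 KO cells and 6 of 7 wildtype cells and lay at 1.19, Hes1 at 2.26, Hey1 at 2.25 and Dll4 at 1.45, while Hey2 lay at -1.02 and the median of all genes at 0.40. The limit kept exactly the KO cells with Mfng on and removed every KO cell with Mfng at 0. It also kept wildtype cell 15, where Mfng was not on. The Mfng share and difference there were thus set by the choice of cells. That set of KO cells includes cells 2, 4, 5 and 6, each of which had more genes on than any wildtype cell compared.

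The number of Notch genes on per cell went with the number of all genes on. KO cells 5 and 6, with 9 Notch genes on each, had 8408 and 6215 genes on, and wildtype cells 20 and 18, with 7 and 6, had 4471 and 5716. The 3 KO cells with 1 Notch gene on, cells 3, 9 and 10, had 3181, 1891 and 2260 genes on, and wildtype cells 14 and 16, also with 1, had 4051 and 4176. Across the 21 cells Spearman's rho was 0.70, and 0.61 without the 2 cells farthest from the median of genes on. It was 0.76 over the 12 KO and 0.55 over the 9 wildtype cells. These are descriptions of cells that share an unknown depth, and the part of detection in which genes were on was not tested. Per gene, the level went most closely with genes on for Hey1 (rho 0.78), Mfng (0.70) and Dll4 (0.68), and hardly at all for Notch2 (-0.03) and Jag1 (-0.08), over 21 cells. For Hes1 and Rbpj it was 0.27 and 0.26.

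**Figure D4:**
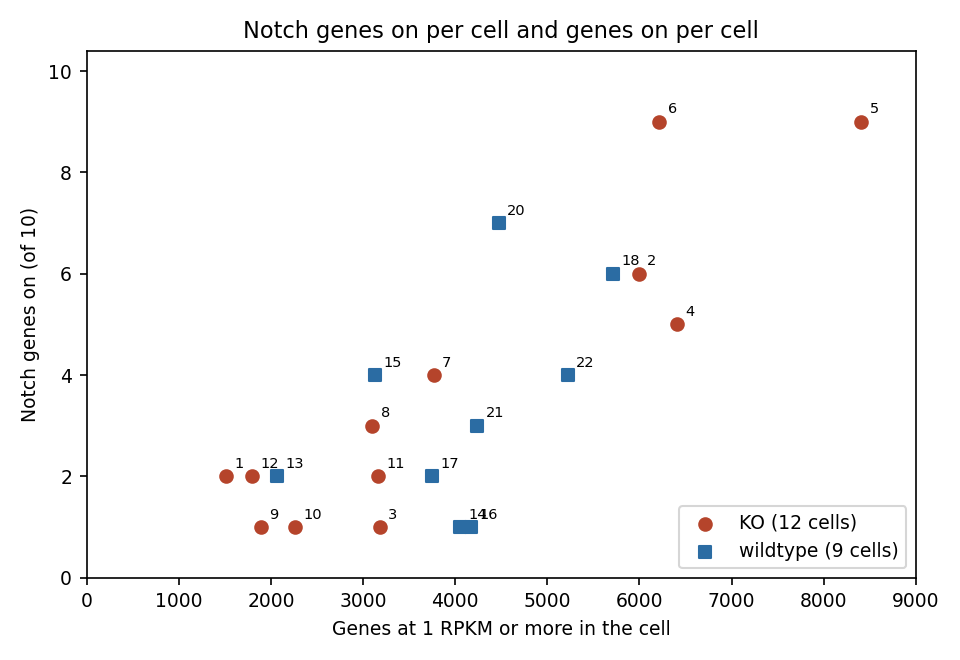
Number of the 10 Notch genes on in a cell against the number of all genes on in that cell, with KO cells as circles, wildtype cells as squares and the cell number beside each. KO cells span 1 to 9 Notch genes and wildtype cells 1 to 7, and cells with more genes on tend to have more Notch genes on.

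Cells with Mfng on had more marker genes of several lists on. In the 12 cells with Mfng on, 4 to 9 of 9 endothelial marker genes were on, with a median of 7, against 0 to 9 with a median of 2 in the 9 cells with Mfng near 0. Wildtype cell 15 was the exception, with all 9 endothelial genes on and Mfng at 0.703 RPKM. The median number on was 4 against 1 for 9 listed arterial genes and 5.5 against 2 for 10 genes of the pre-HSC gate and of blood. For venous and mesenchymal genes the medians went the other way, 0 with Mfng on against 1. Cells with Mfng on also had more genes on, a median of 4846.5 against 2260. Endothelial, arterial, and gate and blood genes thus moved together with detection, and their parts were not tested. Hey1 showed a like pattern over those genes. Of 9 listed arterial genes, 3 to 9 were on in the 6 cells with Hey1 on, with a median of 6. In the other 15 cells 0 to 5 were on, with a median of 2. The medians were 8 against 3 for endothelial genes and 5.5 against 2 for the gate and blood genes. The 5 cells with Dll4 on had 4 to 9 arterial genes on, with a median of 6, against 0 to 5 and a median of 2.5 in the other 16. The number of arterial genes on correlated with the number of Notch genes on at a rho of 0.75 over 21 cells, and with the number of all genes on at 0.61. For endothelial genes on, rho with the number of Notch genes on was 0.65 over 21 cells, 0.85 over the 12 KO and 0.10 over the 9 wildtype cells. Notch2 lay outside this pattern in part: KO cells 1 and 11 and wildtype cell 13, which had the highest Notch2 levels, had 2, 1 and 2 endothelial genes on.

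**Figure D5:**
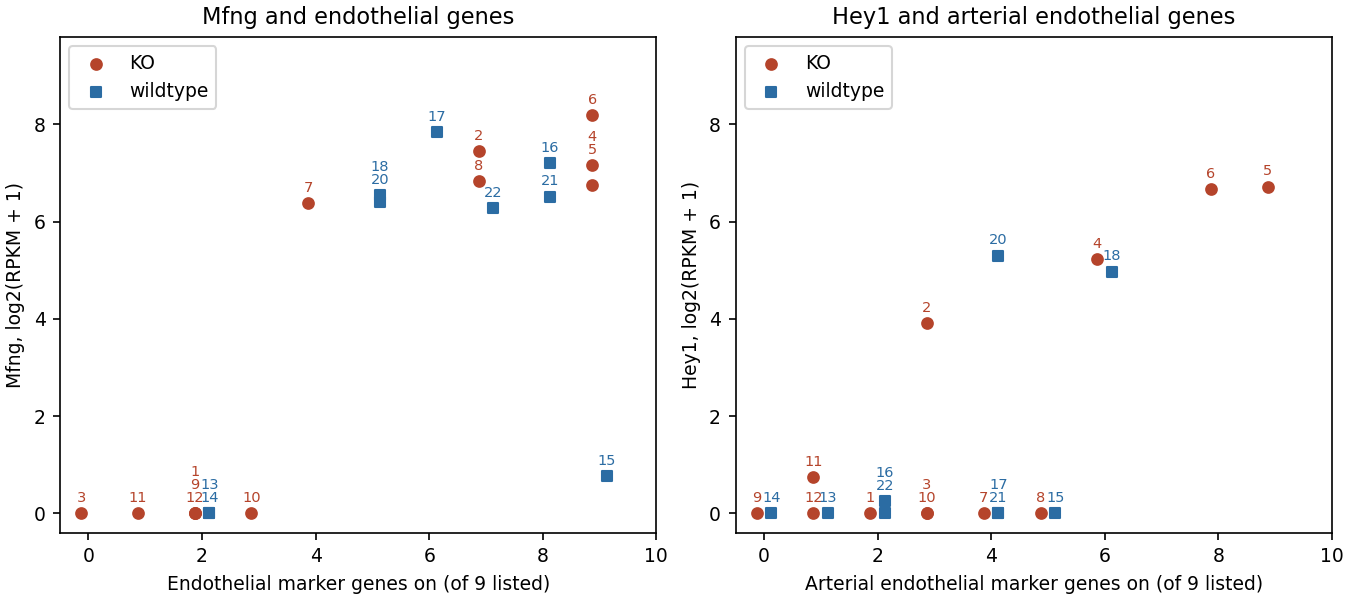
Left, Mfng level as log2(RPKM + 1) against the number of 9 endothelial marker genes on in the same cell. Right, Hey1 level against the number of 9 listed arterial genes on. Circles are KO and squares wildtype cells, set slightly apart sideways, with cell numbers. Mfng is high in 12 cells that have 4 or more endothelial genes on, and near 0 in wildtype cell 15, which has 9 on.

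Markers of other cell types were looked at over the same cells. Of 8 mesenchymal genes, 0 to 5 were on in KO cells, with a summed level of 0.00364 to 685 RPKM, and 0 to 4 in wildtype cells, with 0 to 243 RPKM, and Pdgfra was on in no cell. The highest sums were in KO cells 11, 1 and 9 and wildtype cell 14, in none of which Mfng, Dll4, Hey1 or Hey2 was on. Of 4 listed macrophage genes, 0 to 2 were on in KO and 0 to 1 in wildtype cells, with summed levels of 0 to 700.5 RPKM and 0.000351 to 1951 RPKM. Lyz2, the lysozyme gene, reached 699.6 RPKM in a KO cell and 1951 RPKM in a wildtype cell, and C1qb was at 0 in every cell. Of 6 listed erythroid genes, 0 to 2 were on in both genotypes, with sums of 0 to 145 RPKM over KO cells and 0 to 239 RPKM over wildtype cells. Both listed smooth muscle genes were on in some cells of each genotype, with sums of 0 to 1558 RPKM over KO cells and 0 to 331 RPKM over wildtype cells, highest in KO cells 11 and 4. Of 2 listed epithelial genes, Krt8, a keratin, was on in 2 KO and 0 wildtype cells. The keratin Krt18 was on in 7 of 12 KO cells and 7 of 9 wildtype cells, at up to 479 RPKM in KO cells and 520.1 RPKM in wildtype cells, and differed by -2.03. Their part in the Notch gene levels was not tested.

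The rest of the pathway was described from a list of 68 other genes, of which 59 were in the table and 31 were on in at least 5 cells. Of these 31, 1 was higher and 8 were lower in KO by the size counted as large, beside 9.87% and 19.9% of all compared genes, and their median difference was -0.47 against -0.18 for all genes. Without wildtype cell 17 that median was -0.15, and over cells with 4 or more endothelial genes on it was 0.11, beside 0.40 for all genes. The counts of higher and lower genes also moved with the settings, to 7 and 7 by the ratio of mean RPKM, 4 and 13 with a pseudocount of 0.1, and 3 and 15 with KO cells in the wildtype range of genes on. Of the other receptors and ligands, each was on in at most 4 of the 21 cells. Notch3 was on in 2 KO cells, at up to 8.45 RPKM, and in 0 wildtype cells. Jag2 was on in 1 KO and 1 wildtype cell, Dll1 in 1 KO and 0 wildtype cells, and the non-canonical ligand Dlk2 in 1 KO and 0 wildtype cells. Dlk1, the other non-canonical ligand, was on in 3 KO cells, at up to 149 RPKM, against 1 wildtype cell at 8.44 RPKM.

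Genes that modify or cut the receptor ranged from those on in 1 cell, among them the fringe Lfng, named after its values were seen, to Adam10, on in 17 of 21. Of the proteases, Adam10, which makes the ligand-triggered cut, was on in 11 of 12 KO cells and 6 of 9 wildtype cells, and averaged 3.83 ± 2.1 in KO and 3.09 ± 2.46 in wildtype cells on the log2(RPKM + 1) scale. Psenen, a small subunit of γ-secretase, was on in 7 of 12 KO and 6 of 9 wildtype cells, with a difference of -0.53. Another subunit, Ncstn, differed by 0.90, and the catalytic subunit Psen2 by 2.02, on in 5 of 12 KO against 2 of 9 wildtype cells. Of the sugar-adding enzymes, Poglut1, which puts O-glucose on Notch, was on in 2 of 12 KO against 5 of 9 wildtype cells and differed by -2.13. Rfng, another fringe, differed by -0.03 and Gxylt1, a xylosyltransferase, by 0.19. The proteases thus held the one gene counted as higher, and 1 of 4 compared sugar-adding enzymes was lower.

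The 8 genes counted as lower were Poglut1, Numb, Itch, Snw1, Crebbp, Cir1, Hdac1 and Gata2. Trafficking genes, RBPJ coactivators and RBPJ corepressors held 2 of them each. These roles made up 5, 6 and 7 of the 31 compared genes, so most of the list is of such regulators. Numb, an inhibitor of Notch, was on in 5 of 12 KO against 9 of 9 wildtype cells and averaged 1.09 ± 1.30 in KO cells, against 2.51 ± 1.14 in wildtype cells, which differ by -1.41. Itch, a ubiquitin ligase, was on in 0 of 12 KO against 5 of 9 wildtype cells and differed by -2.01. Nedd4, of the same enzyme family, was on in 11 of 12 KO cells and 9 of 9 wildtype cells and differed by -0.28, and Dtx3, of the Deltex family, by -0.80. Of the RBPJ coactivators, Snw1, also a splicing factor, averaged 3.19 ± 2.78 in KO cells, against 6.08 ± 2.39 in wildtype cells, and differed by -2.89, and the acetyltransferase gene Crebbp differed by -1.10. Of the corepressors, Cir1 differed by -2.41, Hdac1, a histone deacetylase, by -1.13 and Kdm5a, a histone demethylase, by 0.92. Coactivators had 0 higher and 2 lower of 6 compared, and corepressors 0 higher and 2 lower of 7. Of other targets, Efnb2, an arterial ephrin, differed by 0.77, and Gata2, a blood stem cell transcription factor, by -1.97, on in 3 of 12 KO against 5 of 9 wildtype cells. Gata2 stands among the first 24 rows of the table, where the check of row order was not made.

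The genes whose levels ran most like those of Mfng over the 21 cells, by Spearman's rho among the 6759 compared genes, were Pdcd11 at 0.89 and Clu at 0.88. Within the 12 KO and the 9 wildtype cells these stood at 0.88 and 0.88 for Pdcd11 and at 0.89 and 0.77 for Clu. For Hes1 they were 2810408M09Rik at 0.80 and Ndufaf2 at 0.77. Pdcd11, Clu, 2810408M09Rik and Ndufaf2 were on in 8, 9, 6 and 12 of the 21 cells, so ranks of values under 1 RPKM enter these correlations. 2810408M09Rik and Hes1 were both on or both off in 11 of the 21 cells. The other 8 Notch genes were on in fewer than 11 cells and were not searched. These are the extremes of many correlations over cells of unknown depth, and Pdcd11 and Clu themselves ran with the number of genes on at 0.59 and 0.61.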

How the data were processed

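The authors deposited 1 table of RPKM for 22 T1 pre-HSCs, a measure scaled to transcript length and to each cell's total. Per the submitters' processing notes, the tool was Cufflinks 2.1.0 and the genome build mm10. Not given in the sources used here are the aligner, the annotation and how multi-mapping reads were handled. Whole reads were not recovered, so depth is unknown. Groups were taken from the sample labels. The adult HSC table and the methylation libraries were not analysed here.

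Values were computed with Python 3.11.15, pandas 2.3.3 and scipy 1.17.1. Levels were averaged over cells as log2(RPKM + 1), and each difference is KO minus wildtype. The pseudocount of 1 shrinks differences of genes at low levels. A gene was compared at 1 RPKM or more in at least 5 of 21 cells, without regard to genotype. No test was made, since each genotype is 1 sample. Wildtype cell 19 was left out. The Notch genes and the lists were chosen with earlier results of these data known. Genes named are the 10, the 2 highest and the 2 with the largest difference in each role of the pathway list, and the 2 most like each Notch gene that was on in at least 11 cells. The script was checked on simulated data in which all genes stood at high levels, so the check does not cover genes at low levels. Alternatives were other pseudocounts, scalings, filters, medians over cells and sets of cells, and leaving out each cell in turn. The set with 4 or more endothelial genes on was chosen after seeing the data.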

Additional observations from a re-analysis of the deposited data

Results flagged for a closer look

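Among the 9 wildtype cells, 11 values were checked for a single cell far from the rest, and 5 stood out by the gap to the nearest other cell over the whole range. Chance marks about 1 in 20 groups of continuous values, a rate that does not hold here. On the log2(RPKM + 1) scale these were Notch1 at 4.90 in cell 15, Notch2 at 3.54 in cell 13, Notch4 at 1.09 in cell 20, Dll4 at 5.29 in cell 18 and Rbpj at 3.92 in cell 18. Each of these genes was on in 1 to 3 of the 9 cells and at or near 0 in the others. Hey1 and Hey2, each on in 2 of the 9 cells, were not flagged. Their gaps were 0.06 and 0.13 of the range. The 12 KO cells were too many for this check.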

How the results depend on the processing

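Sequencing depth is unknown and each genotype is 1 sample, which limits every value. Apart from runs that leave out 1 cell, the difference of Notch2 ranged from 0.12 to 0.79 and that of Hes1 from 0.15 to 2.26, above 0 in each alternative run. Over cells with Xist under 1 RPKM (5 KO, 7 wildtype) and over cells with 4 or more endothelial genes on, Mfng reversed, to 1.11 and 1.19. The KO cells of the endothelial set are exactly those with Mfng on. Over cells with low Xist, Jag1 and Notch1 also changed sign, to -0.48 and -0.12. The number of the 10 genes with a large difference was 4 with a pseudocount of 0.1, 0 with a pseudocount of 10, 0 after scaling to equal medians, 0 with wildtype cell 19, 4 over cells with low Xist and 8 over cells with endothelial genes on, against 2 as reported. It was 1 to 3 when each cell was left out in turn. The number higher in KO was 4 by medians over cells, where Notch1, Notch4, Dll4, Hey1 and Hey2 were tied at exactly 0 and Mfng alone was lower, and 3 with KO cells in the wildtype range of genes on, against 8. Of the other pathway genes, 1 was higher and 8 lower as reported, and 1 and 3 with a pseudocount of 10, 4 and 10 by medians over cells, 3 and 7 with wildtype cell 19, 4 and 10 over cells with low Xist and 5 and 7 over cells with endothelial genes on. With no filter, 5.85% of all genes were higher and 10.6% lower by 1 or more. The cause of these changes was not tested. No paired analysis was possible because the labels name no embryo or litter, and no test was made.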
